A study of Mus musculus with 15 samples.

Results

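The genes described here are 10 markers of the myofibroblast, 6 of them contractile and cytoskeletal (Acta2, Tagln, Cnn1, Myh11, Des and Myl9) and 4 of them linked to fibroblast activation (Fap, Cthrc1, Lrrc15 and Runx1). They were chosen by gene name from the 56748 genes of the table, and all 10 were present and passed the filter on low counts in both organs. RNA-seq was performed on kidney and lung of wild-type male C57Bl/6 mice, to ask how injured tissue treated with a leptin-neutralizing antibody (LepAb) differs from injured tissue treated with control IgG. The kidney groups were WTK (vehicle), IgGK (folic acid and IgG) and LepK (folic acid and LepAb). The lung groups were IgGL (bleomycin and IgG) and LepL (bleomycin and LepAb), and no uninjured lung was analysed here. Each group held 3 libraries. The kidney mice were 10 to 12 weeks old, received a single folic acid dose of 200 mg/kg or its vehicle, and were euthanized at day 28 with antibody injections given for 21 days from day 1. The lung mice were 12 weeks old, received bleomycin at 1.5 units/kg into the trachea, and were euthanized at day 14 with antibody injections for 14 days. The antibody dose was 10 mg/kg, which for the kidney is the dose the methods carried forward, and the labels state no antibody for WTK. Library totals ranged from 25913969 to 32321976 counts in the kidney and from 29974718 to 38924788 in the lung. The lung libraries are described as 3 mice per group, whereas the kidney libraries are described only as 3 per group, so the kidney p-values measure the spread between libraries that may be technical.

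Myofibroblasts are contractile, matrix-producing cells that appear in injured tissue and derive largely from resident fibroblasts and pericytes. Their contractile genes are shared with vascular and airway smooth muscle and are driven by serum response factor (SRF), which binds the CArG box with cofactors of the myocardin family. The activation genes mark matrix-remodelling fibroblasts, and Runx1, a transcription factor, is also expressed by blood cells. In whole tissue, fewer cells of a type and less RNA per cell cannot be told apart.

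Because SRF binding unites the contractile genes, the 250 bases upstream of the annotated start were searched for CArG boxes in the RefSeq promoters of build GRCm38.p6, which held 6 of the 10 members. Sequences are shown 5′ to 3′ on the gene's strand for the 2 contractile genes with a match, and capitals mark CArG boxes or CArG-like sites. A CArG-like site was read as CC, a core of 6 bases with at most 1 G or C, then GG, on either strand. The strict box, with A or T only in the core, counts within it.
Acta2, chr19:34255374-34255623, minus strand: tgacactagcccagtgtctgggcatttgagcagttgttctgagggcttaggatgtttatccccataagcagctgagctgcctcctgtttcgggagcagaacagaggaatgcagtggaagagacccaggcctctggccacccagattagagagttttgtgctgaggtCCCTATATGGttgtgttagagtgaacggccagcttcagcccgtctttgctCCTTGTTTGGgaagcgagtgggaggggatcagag
Myl9, chr2:156775214-156775463, plus strand: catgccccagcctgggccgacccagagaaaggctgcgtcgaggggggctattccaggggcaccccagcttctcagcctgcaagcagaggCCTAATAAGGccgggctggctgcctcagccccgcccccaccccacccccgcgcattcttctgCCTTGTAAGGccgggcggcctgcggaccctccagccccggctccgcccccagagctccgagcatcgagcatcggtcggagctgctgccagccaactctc
Acta2 carried 2 CArG-like sites, and Myl9 carried 1 strict box and 1 CArG-like site. The windows of Cnn1, Des, Lrrc15 and Runx1 held none of these letters. Of all 32536 promoters of this length, 8.59% held a CArG-like site and 1.48% a strict box. A match in this window is a description of the sequence and not a measured binding site.

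Levels of different genes were compared per length, as FPKM (fragments per kilobase of transcript, computed by the authors). These FPKM are not scaled by the count total alone. Their median ratio to that scaling was 0.9714 in WTK, 0.7126 in IgGK, 0.8491 in LepK and 0.6887 in IgGL, each for replicate 1. FPKM of 1 gene in different groups carry this factor. In WTK the order began with Myl9, a regulatory light chain of myosin, at 39.6 FPKM, then Acta2, the smooth muscle α-actin, at 15.1, Myh11, the smooth muscle myosin heavy chain, at 3.65, and Des, the intermediate filament protein desmin, at 2.68. The other 6 members lay between 0.160 and 0.336 FPKM, and the neighbours Lrrc15, Cthrc1, Runx1, Tagln and Fap did not differ beyond their spread. In IgGK the same 2 genes led, with Myl9 at 54.1 and Acta2 at 25.6 FPKM, while Des at 5.89 stood above Myh11 at 2.43 and Runx1 had moved to 1.54. In IgGL, Acta2 was at 105.9 FPKM, Des at 51.1 and Myl9 at 44.3. The gap of 6.77 between Des and Myl9 is larger than the SD of Des (2.73) and smaller than that of Myl9 (7.30). Their libraries overlapped, with Myl9 at 48.78 in replicate 1 and Des at 48.45 in replicate 2. Cthrc1, Runx1 and Myh11 were close together in IgGL, at 7.53, 7.19 and 6.98 FPKM, closer than their spread. Fap at 0.436 and Lrrc15 at 0.307 FPKM were the lowest members in IgGL. The smooth muscle actin, myosin light chain and desmin made up the abundant members in injured tissue of both organs, and Tagln, Fap and Lrrc15 remained low in all 5 groups, at 0.9997 FPKM or below.

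**Figure D1:**
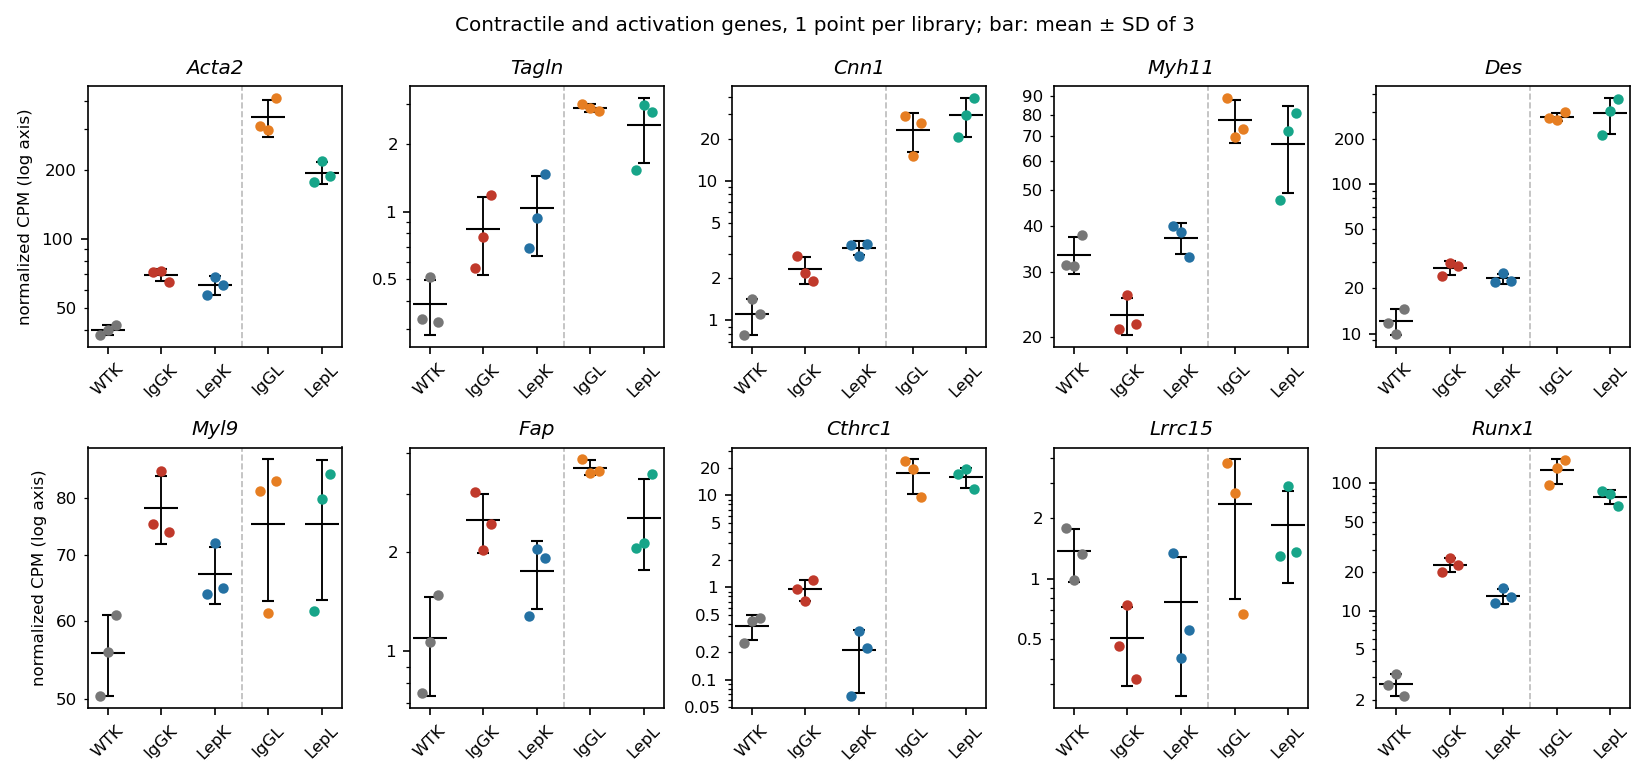
Normalized CPM (log axis, with its own range for each gene) of the 10 members in every library, with horizontal bars at the mean and whiskers at ± SD of 3 libraries. The dashed line parts kidney from lung, which were scaled separately. IgGK lies above WTK for 8 genes and below it for Myh11 and Lrrc15, without overlap.

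Folic acid injury was first compared with vehicle (IgGK against WTK). IgGK also received IgG and no antibody is stated for WTK, so folic acid and the antibody injections cannot be told apart. All comparisons with WTK carry this limit. Acta2, Cnn1, Des, Fap and Runx1 were up-regulated, whereas Myh11 and Lrrc15 were down-regulated. A gene was called changed when its log2 fold change was above 0.5 or below -0.5 with an edgeR quasi-likelihood adjusted p under 0.05, the thresholds of the study. By this rule 7 of the 10 members were called, 5 higher and 2 lower, against 37.3% of the 19593 genes tested (21.7% higher and 15.6% lower). All 10 members had groups that did not overlap, which held for 62.6% of genes.

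Among the contractile genes, Acta2 stood at 38.3, 40.1 and 42.2 CPM in WTK, at 71.8, 72.6 and 64.8 CPM in IgGK, and at 56.8, 68.6 and 63.0 CPM in LepK. Every injured library was above every WTK library, and the IgGK and LepK values overlapped. Upon injury Acta2 rose by 0.79 ± 0.08 on the log2 scale (SE, adjusted p = 4.04e-06). Des stood at 11.8, 9.99 and 14.7 CPM in WTK, at 24.3, 29.8 and 28.3 CPM in IgGK, and at 22.3, 25.3 and 22.4 CPM in LepK. Des followed the same course as Acta2, with a log2 fold change of 1.17 ± 0.13 (adjusted p = 9.75e-06) on injury. Cnn1, which encodes the actin-binding protein calponin, was scarcer, at 0.789, 1.42 and 1.12 CPM in WTK, 2.90, 2.17 and 1.91 CPM in IgGK, and 3.49, 2.88 and 3.54 CPM in LepK. It was up-regulated by 1.06 ± 0.30 on the log2 scale (adjusted p = 0.00906), and 2 of its 3 LepK values lay above all IgGK values.

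Myl9 stood at 50.3, 55.8 and 60.8 CPM in WTK, at 75.2, 85.1 and 73.8 CPM in IgGK, and at 63.9, 72.0 and 64.9 CPM in LepK, so that the 3 groups did not overlap. Upon injury its log2 fold change of 0.49 ± 0.09 passed the p threshold (adjusted p = 0.000367) but lay just under the fold threshold. Tagln, which encodes the actin-associated protein transgelin (SM22α), rested on 8, 13 and 9 counts in WTK, 17, 27 and 41 in IgGK, and 21, 28 and 40 in LepK. Its log2 fold change was 1.10 ± 0.49 and did not pass the test (adjusted p = 0.0760).

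The deposited Tagln counts were low for a gene that smooth muscle expresses strongly. In the table's positions (GRCm39), Tagln lies on chromosome 9 from 45840917 to 45847356 on the minus strand, and Gm48529, a long noncoding RNA on the plus strand from 45841410 to 45845036, covers 3627 of its 6440 bases. In libraries that are not strand-specific, reads from this stretch cannot be assigned to either gene. The part of this overlap in the low Tagln counts was not tested. In the GENCODE M21 annotation of GRCm38, the exons of Gm48529 cover 62.4% of the exon bases of Tagln. In that annotation 44.5% of the 50-base words of the Tagln transcript also occur in Gm48529, whereas no other member shared more than 5.81% of its words with another gene. Gm48529 itself was at a mean of 0.881 CPM for WTK, 1.44 for IgGK and 0.887 for LepK. With both genes' counts added, an alternative chosen after the data were seen, the injury effect of the sum was 0.84 on the log2 scale (adjusted p = 0.0497), which passed. Gm48529 gave more of this sum than Tagln, with total counts of 69 beside 30 in WTK and 146 beside 85 in IgGK. Reads assigned to neither gene are not in the sum, so it is not a corrected Tagln value. Each Tagln value here carries the limit of this overlap.

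Myh11 ran against the other contractile members. It stood at 31.4, 31.2 and 37.9 CPM in WTK, at 21.1, 25.98 and 21.8 CPM in IgGK, and at 40.1, 38.5 and 33.1 CPM in LepK. Every IgGK library was below every WTK and every LepK library, while WTK and LepK overlapped. Its injury effect was -0.55 ± 0.11 on the log2 scale (adjusted p = 0.00105), just past the fold threshold. Without WTK replicate 3 it was -0.45 and without IgGK replicate 1 it was -0.49, and neither passed the fold threshold. With library size alone in place of TMM scaling the value was -0.10 (adjusted p = 0.448), in a fit where the median of all genes moved up by 0.44.

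Among the activation genes, Runx1 had the largest difference of the 10 members. It stood at 2.62, 3.16 and 2.13 CPM in WTK, at 20.1, 25.9 and 22.9 CPM in IgGK, and at 11.4, 14.95 and 12.7 CPM in LepK. The 3 groups were apart from one another, with LepK in between. The log2 fold change of Runx1 on injury was 3.13 ± 0.17 (adjusted p = 4.63e-08). Fap, a cell-surface serine protease of activated fibroblasts, stood at 0.748, 1.07 and 1.48 CPM in WTK, at 3.03, 2.03 and 2.43 CPM in IgGK, and at 1.28, 2.04 and 1.92 CPM in LepK. Fap was up-regulated by 1.18 ± 0.34 on the log2 scale (adjusted p = 0.0105), and its LepK values overlapped those of both other groups.

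Cthrc1, a secreted protein of matrix-producing fibroblasts, rested on few counts in the kidney: 6, 11 and 13 in WTK, 29, 25 and 42 in IgGK, and 2, 10 and 6 in LepK. All IgGK libraries were above the other 6, and its log2 fold change on injury was 1.31 ± 0.55 (adjusted p = 0.0632), which did not pass. Lrrc15, a membrane protein of a fibroblast subset, had 43, 25 and 37 counts in WTK, 14, 26 and 11 in IgGK, and 41, 12 and 15 in LepK. In CPM the lowest WTK value (0.987) was above the highest IgGK value (0.743), and Lrrc15 was down-regulated by -1.42 ± 0.53 on the log2 scale (adjusted p = 0.0386). That call was lost when WTK replicate 1, WTK replicate 3, IgGK replicate 1 or IgGK replicate 3 was left out, with log2 fold changes from -1.80 to -1.17 over all 9 fits that left out 1 library, and with library size alone as scaling (-0.98, adjusted p = 0.121). Fap, Runx1 and Cthrc1 were thus higher in all 3 injured IgGK libraries and Lrrc15 was lower.

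LepK was next compared with IgGK, the comparison that asks what leptin neutralization changed in the injured kidney. Cthrc1 and Runx1 were down-regulated in LepK and Myh11 was up-regulated, and the other 7 members, among them Acta2, Des and Cnn1, did not pass. These 3 of 10 called members compare with 10.4% of all genes (4.38% higher and 5.99% lower). The groups of Myh11, Myl9, Cthrc1 and Runx1 did not overlap, against 37.4% of genes. The IgGK libraries serve in both this comparison and the one with WTK, so the values of the 2 comparisons are not independent.

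Runx1 differed by -0.82 ± 0.15 on the log2 scale (adjusted p = 0.00253) and Cthrc1 by -2.19 ± 0.58 (adjusted p = 0.0192). Leaving out a single library ended the Cthrc1 call 4 times in 9, without IgGK replicate 1, IgGK replicate 3, LepK replicate 1 or LepK replicate 3, where the adjusted p ran from 0.0504 to 0.0788 and the value stayed between -2.73 and -1.76 in all 9. Myh11 was higher by 0.70 ± 0.11 (adjusted p = 0.00118), and the calls of Myh11 and Runx1 held in all 9 such fits. Acta2 differed by -0.15 ± 0.08 (adjusted p = 0.211), Des by -0.24 ± 0.13 (adjusted p = 0.228) and Myl9 by -0.22 ± 0.08 (adjusted p = 0.0873). Cnn1 differed by 0.51 ± 0.28 (adjusted p = 0.236), Fap by -0.51 ± 0.33 (adjusted p = 0.310), Tagln by 0.29 ± 0.45 (adjusted p = 0.702) and Lrrc15 by 0.60 ± 0.54 (adjusted p = 0.485). The standard errors of Acta2, Des and Myl9 were small, and those of Tagln and Lrrc15 were as large as or close to their differences.

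Against uninjured kidney, LepK had higher levels of Acta2, Des, Cnn1, Tagln and Runx1. Acta2 (0.64 ± 0.08 on the log2 scale, adjusted p = 7.87e-05), Des (0.94 ± 0.13, 0.000185), Cnn1 (1.57 ± 0.30, 0.00128), Tagln (1.40 ± 0.49, 0.0390) and Runx1 (2.31 ± 0.17, 2.17e-06) were up-regulated, with the adjusted p given second. These 5 of 10 compare with 22.5% of genes called (15.2% higher and 7.3% lower), and 6 members did not overlap, against 50.2% of genes. Myh11 differed from WTK by 0.15 ± 0.11 (adjusted p = 0.303), and Cthrc1 by -0.89 ± 0.61 (adjusted p = 0.284). Myl9 differed by 0.26 ± 0.09 (adjusted p = 0.0273), below the fold threshold, and Fap by 0.66 ± 0.34 and Lrrc15 by -0.82 ± 0.52 did not pass. The Tagln call was lost without WTK replicate 1, WTK replicate 3, LepK replicate 2 or LepK replicate 3. The sum of the Tagln and Gm48529 counts had a value of 0.59 (adjusted p = 0.191).

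**Figure D2:**
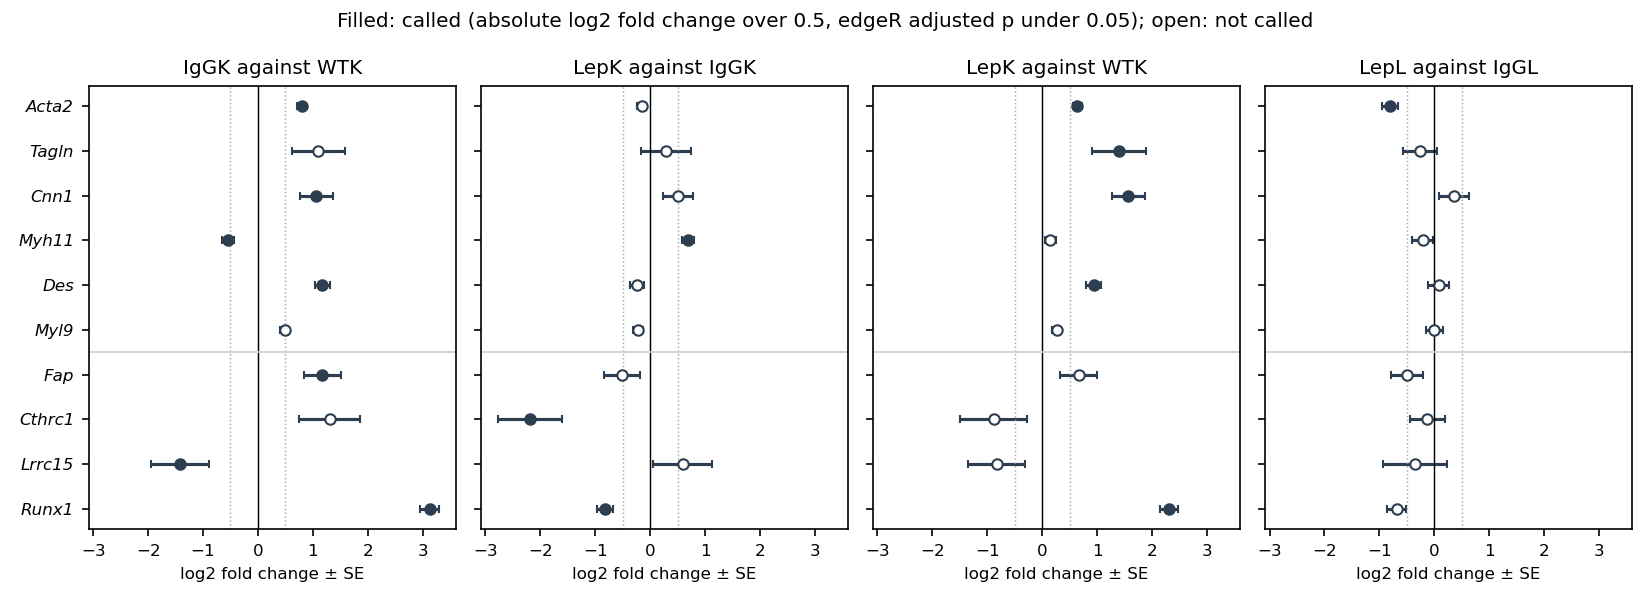
Log2 fold change with its SE (horizontal axis) for each member (vertical axis, contractile genes above the grey line) in 4 comparisons, filled where called and open where not, with dotted lines at the fold threshold of 0.5 on either side. Acta2, Tagln, Cnn1, Des and Runx1 are filled and higher in LepK than in WTK, while between LepK and IgGK the filled points are Myh11 at 0.70, Cthrc1 at -2.19 and Runx1 at -0.82.

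Other cell types moved in the same libraries. The summed level of 10 macrophage markers was 189.9 to 217.8 CPM in WTK. It was 1716 to 2175 CPM in IgGK and 609.0 to 907.8 CPM in LepK, and 10, 9 and 9 of these markers were called in IgGK against WTK (higher), LepK against IgGK (lower) and LepK against WTK (higher). T cell markers summed to 8.97 to 13.4 CPM in WTK and to 42.5 to 75.9 in IgGK, with 34.6 to 46.9 in LepK. In the kidney Runx1 follows the same order of groups as the macrophage markers, and their part in its values was not tested. Markers of injured tubule summed to 547.0 to 551.7 CPM for WTK, 6454 to 6789 for IgGK and 2671 to 4042 for LepK, while proximal tubule markers summed to 47110 to 49330, 11620 to 18490 and 25280 to 34210 CPM. Pericyte and mesangial markers summed to 289.8 to 310.7 CPM for WTK, 322.0 to 340.5 for IgGK and 333.8 to 347.0 for LepK. Their members moved in opposite directions, with 3 of 11 higher and 2 lower on injury, near the shares of all genes (21.7% and 15.6%). Among those called were Pdgfrb (1.29 ± 0.11), Ren1 (-1.67 ± 0.11) and Kcnj8 (-0.97 ± 0.19). Single genes made up most of some sums. Spp1 was at 5624 of 6475 CPM (injured tubule) and Lyz2 at 1014 of 1716 CPM (macrophage) in IgGK replicate 1. Kap was at 32000 of 47110 CPM (proximal tubule) in WTK replicate 1. The part of these tissue shifts in the members' values was not tested.

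The rest of the contractile program was read from a list of 16 smooth muscle genes that holds no member. In IgGK against WTK, 8 were up-regulated and 1 was down-regulated, beside 21.7% and 15.6% of all genes. The median log2 fold change was 0.44 against 0.04 for all genes. Tpm1, a tropomyosin that lies along actin filaments, rose by 1.45 ± 0.07 (adjusted p = 1.9e-08), and Cald1, the actin- and calmodulin-binding caldesmon, by 1.13 ± 0.11. Pln, the calcium pump regulator phospholamban, was the gene called lower (-0.99 ± 0.39, adjusted p = 0.0476). No gene of the list was called lower by DESeq2, nor without WTK replicate 3, IgGK replicate 1, IgGK replicate 3 or any 1 LepK library. In LepK against IgGK 2 of the 16 were called, a share close to the 10.4% of all genes. Cald1 was lower (-0.54 ± 0.11, adjusted p = 0.00502) and Pln higher (1.37 ± 0.39, adjusted p = 0.0250), and the median was -0.10. Pln was at a mean of 1.1 CPM. Leaving out IgGK replicate 1, IgGK replicate 2, LepK replicate 2 or LepK replicate 3 left no gene of the list called higher in LepK. Leaving out IgGK replicate 2 or LepK replicate 1 left none called lower, and leaving out LepK replicate 3 gave 2 lower. Leaving out IgGK replicate 2 gave 5 called higher on injury. In LepK against WTK, 5 were higher and none lower, beside 15.2% and 7.3% of all genes. Mustn1 (1.19 ± 0.24), Tpm1 (0.98 ± 0.07) and Tpm2 (0.80 ± 0.13) were among them.

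Beside 21.7% of all genes, 5 of the 10 tested genes encoding SRF, its cofactors and related regulators were up-regulated in IgGK against WTK. They included Tgfb1i1, the focal adhesion protein Hic-5, at 1.88 ± 0.15, Klf4, a transcription factor, at 1.86 ± 0.17, and Fhl2, a LIM-domain coregulator, at 1.16 ± 0.10. In LepK against IgGK, Tgfb1i1 alone was called, at -0.53 ± 0.14 (adjusted p = 0.0184), a share of the list close to the 10.4% of all genes. Without IgGK replicate 2, IgGK replicate 3 or LepK replicate 1 no gene of the list was called, and without LepK replicate 3 there were 2 lower. In LepK against WTK 3 were higher, beside 15.2% of all genes.

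Paralogs show whether a family moved with its member. Of 20 paralogs tested in the kidney, 11 rose and 1 fell on injury, beside 21.7% and 15.6% of all genes. Those that rose included Runx2 (2.15 ± 0.27) and Runx3 (1.72 ± 0.35), relatives of Runx1, and Vim (1.93 ± 0.13), an intermediate filament gene like Des. In LepK against IgGK, Runx2 (-0.80 ± 0.25), Cnn2 (-0.66 ± 0.10) and Vim (-0.62 ± 0.12) were down-regulated, and 1 other paralog was higher. Of all genes, 5.99% were lower and 4.38% higher there. Without IgGK replicate 2 the counts were 1 lower and 0 higher, and without LepK replicate 1 they were 2 lower and 0 higher.

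The list of activated fibroblast genes, which holds no member, gave larger counts than the members. Like the members, it was chosen with earlier results of these data known, so its counts are a description. Of 19 tested, 17 rose and 0 fell in IgGK against WTK, beside 21.7% of all genes higher and 15.6% lower. The median was 2.64, and Ltbp2 at 5.51 ± 0.40, Inhba at 3.94 ± 0.37 and Col1a1 at 3.88 ± 0.23 led. In LepK against IgGK 13 fell, against 5.99% of all genes. The median was -1.08, beside -0.19 for the 10 members and -0.01 for all genes. Inhba, an activin subunit, fell by 1.61 on the log2 scale, and Adam12, a metalloprotease, and Cdh11, a cadherin of mesenchymal cells, fell by 1.35 and 1.34. In LepK against WTK 13 of the 19 remained called higher. Of the 12 resting fibroblast genes, 8 were higher and 1 lower in IgGK against WTK, and 1 was higher and 4 lower in LepK against IgGK, with Dpt, Lum and Pdgfra among the 4.

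**Figure D3:**
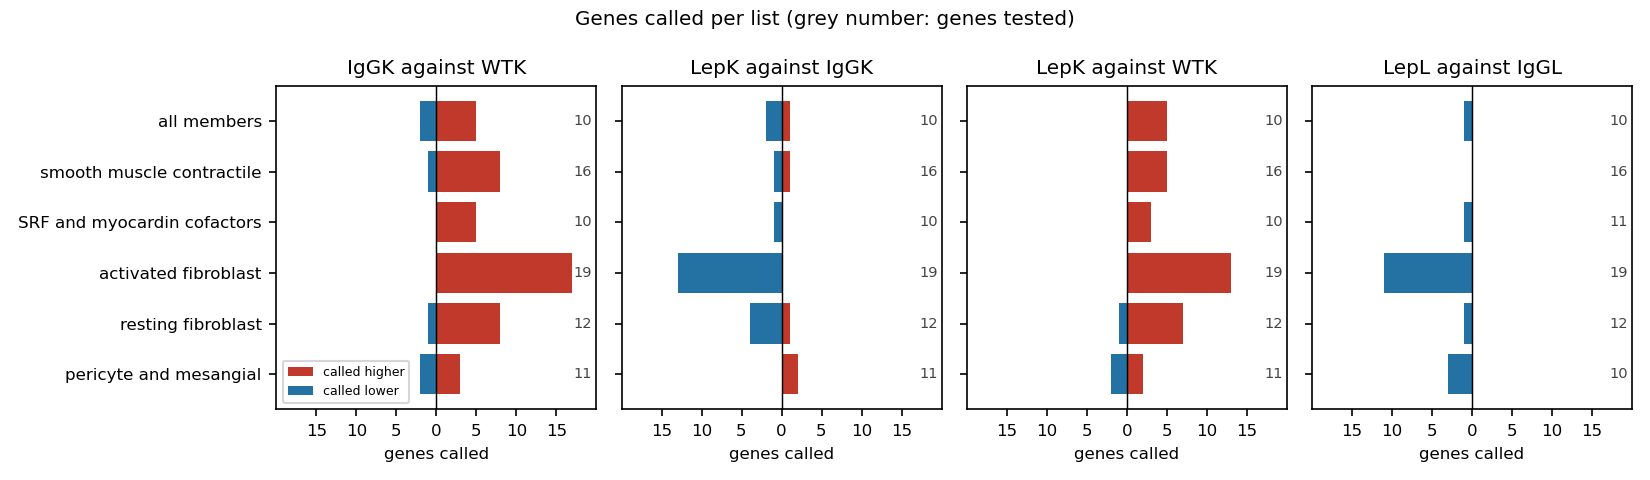
Number of genes called higher (red, to the right of 0) and lower (blue, to the left) in each gene list and comparison, with the number tested in grey at the right. In LepK against IgGK the activated fibroblast list has 13 genes called lower, while the smooth muscle contractile list has 1 higher and 1 lower. Of all genes tested, 4.38% were called higher and 5.99% lower in that comparison.

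In the lung, LepL was compared with IgGL 14 days after bleomycin. Acta2 was the member that was down-regulated, and the other 9 did not pass. This 1 of 10 compares with 4.14% of the 19617 genes tested (1.78% higher and 2.36% lower). Acta2, Fap and Runx1 had groups that did not overlap, all lower in LepL, against 33.3% of genes.

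Acta2 stood at 309.3, 298.6 and 411.9 CPM in IgGL and at 177.4, 217.8 and 188.2 CPM in LepL. The log2 fold change was -0.81 ± 0.15 (adjusted p = 0.0350). The call held in 1 of the 6 fits that left out a library, the one without IgGL replicate 1 (adjusted p = 0.00616). It was lost without IgGL replicate 2, IgGL replicate 3 or any 1 LepL library, with adjusted p from 0.0548 to 0.193 and values from -0.89 to -0.65 over all 6. Runx1 stood at 97.1, 131.1 and 151.6 CPM in IgGL and at 86.7, 82.5 and 66.8 CPM in LepL. The difference of -0.69 ± 0.17 on the log2 scale just missed the threshold (adjusted p = 0.0545). It passed without IgGL replicate 1 (adjusted p = 0.00361) and with DESeq2 (adjusted p = 0.00344). Fap stood at 3.82, 3.47 and 3.53 CPM in IgGL and at 2.06, 2.13 and 3.45 CPM in LepL, a difference of -0.50 ± 0.28 (adjusted p = 0.293).

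Other cell types also differed between the lung groups. Macrophage markers summed to 3835 to 6724 CPM in IgGL and to 8033 to 8304 CPM in LepL, although 3 of the 10 were called lower, Itgam (-1.59 ± 0.34), Fcgr1 (-1.28 ± 0.28) and Mrc1 (-1.06 ± 0.21), and Lyz2 alone was at 7153, 6978 and 7375 CPM in LepL. Markers of lung epithelium summed to 16520 to 22470 CPM in IgGL and to 30690 to 47890 CPM in LepL, with Sftpc, a surfactant protein gene, higher by 1.40 ± 0.29. The macrophage and epithelium counts were 0 without any 1 library other than IgGL replicate 1. The part of these shifts in the lung values of Acta2 and Runx1 was not tested.

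The difference seen for Acta2 was not called in the other contractile genes. Des was at 274.3, 266.2 and 300.1 CPM in IgGL and at 211.3, 306.5 and 369.2 CPM in LepL, a difference of 0.08 ± 0.19 (adjusted p = 0.822). Cnn1 was at 28.9, 15.02 and 25.8 CPM in IgGL and at 20.6, 29.4 and 39.2 CPM in LepL (0.36 ± 0.28, adjusted p = 0.446). Myh11 was at 89.0, 69.7 and 73.3 CPM in IgGL and at 47.0, 72.5 and 81.1 CPM in LepL (-0.21 ± 0.19, adjusted p = 0.520). In all 3 of these genes LepL replicate 1 was the lowest and LepL replicate 3 the highest of the LepL libraries. Myl9 was at 81.3, 61.1 and 83.2 CPM in IgGL and at 61.4, 79.7 and 84.5 CPM in LepL, with a log2 fold change of 0.001 ± 0.157 (adjusted p = 0.997). Tagln had 109, 104 and 84 counts in IgGL and 47, 102 and 110 in LepL (-0.25 ± 0.31, adjusted p = 0.640). The Tagln counts of the lung carry the same overlap with Gm48529, which was at a mean of 2.43 CPM in IgGL and 2.85 in LepL.

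Cthrc1 and Lrrc15 overlapped between the lung groups. Cthrc1 was at 23.4, 19.4 and 9.51 CPM in IgGL and at 17.04, 19.3 and 11.6 CPM in LepL (-0.13 ± 0.31, adjusted p = 0.829). Lrrc15 was at 3.77, 2.67 and 0.665 CPM in IgGL and at 1.31, 2.89 and 1.36 CPM in LepL (-0.36 ± 0.58, adjusted p = 0.729). IgGL replicate 3, which had the lowest Cthrc1 and Lrrc15 of its group, had the highest Acta2 and Runx1.

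Skeletal muscle RNA was present in the lung libraries in unequal amounts. The 9 skeletal muscle markers summed to 839.5, 647.2 and 251.5 CPM in IgGL and to 788.5, 1597 and 2080 CPM in LepL, against 4.9 to 9.7 CPM over the kidney libraries, and 10 cardiac markers summed to 139.1, 262.0 and 148.8 CPM in IgGL and to 203.2, 397.9 and 555.0 CPM in LepL. Des is also a gene of skeletal and cardiac muscle. LepL replicates 2 and 3, which had the highest muscle sums, also had the highest Des of the 6 lung libraries, and LepL replicate 3 the highest Cnn1. Other libraries did not follow this order. IgGL replicate 3 had the lowest muscle sum and the highest Des of its group (300.1 CPM), LepL replicate 1 had the lowest Des of all 6 (211.3 CPM), and IgGL replicate 2 the lowest Cnn1 (15.02 CPM). In LepL against IgGL, 0 of the 9 skeletal markers passed the edgeR test at a median log2 fold change of 1.52, while 7 had an unadjusted p under 0.05, 3 were called higher by DESeq2 and 8 were called higher without IgGL replicate 1. Of the 10 cardiac markers 2 passed, Myl7 (1.86 ± 0.29) and Myl4 (1.74 ± 0.29). The part of this muscle RNA in the members' lung values was not tested.

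**Figure D4:**
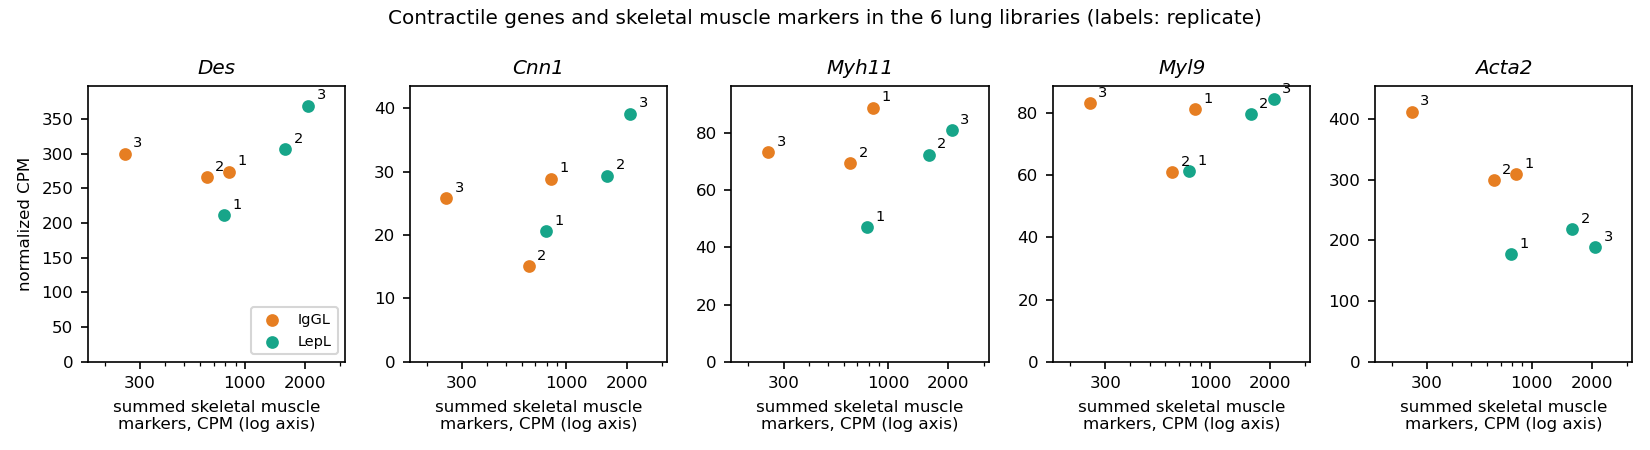
Normalized CPM of 5 contractile genes (vertical axes from 0) against the summed CPM of 9 skeletal muscle markers (horizontal log axis) in the 6 lung libraries, labelled by replicate. Des is highest in LepL replicates 2 and 3, where the muscle sum is 1597 and 2080 CPM, and Acta2 is lower in all 3 LepL libraries than in any IgGL library.

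Of the 16 other smooth muscle contractile genes, 0 were called by edgeR in LepL against IgGL, and their median log2 fold change was 0.06. At an unadjusted p under 0.05, 5 were higher and 3 lower, and DESeq2 called 4 higher and 2 lower, as did edgeR without IgGL replicate 1. Of the 11 SRF genes tested, Mrtfb, a myocardin-related cofactor, was down-regulated (-0.56 ± 0.12, adjusted p = 0.0405). Without IgGL replicate 1 there were 2 of these genes lower, and without any 1 of the other 5 libraries there were 0. Among 21 paralogs, Actc1, the cardiac α-actin, rose by 1.92 ± 0.35 and Dpp4, the protease most closely related to Fap, by 1.22 ± 0.27. Actc1 was at 49.9, 27.9 and 31.6 CPM in IgGL and at 71.2, 148.6 and 194.8 CPM in LepL, in the order of the muscle sums in LepL but not in IgGL. Without IgGL replicate 1 there were 6 paralogs called higher and 4 lower, without LepL replicate 1 there was 1 higher, and without replicate 2 or replicate 3 of either group there were 0. By comparison 11 of 19 activated fibroblast genes were down-regulated and none up-regulated, against 2.36% and 1.78% of all genes. Their median was -0.94, and Tnc (-2.36 ± 0.48), Adam12 (-2.03 ± 0.45) and Inhba (-1.78 ± 0.41) led. DESeq2 called 13 of these lower, and 16 had an unadjusted p under 0.05. Without IgGL replicate 1 edgeR called 12 lower and 1 higher, without LepL replicate 1 it called 1 lower, and without replicate 2 or replicate 3 of either lung group it called 0. Of 10 pericyte and mesangial genes 3 were down-regulated, Pdgfrb (-0.88 ± 0.10), Cspg4 (-0.66 ± 0.13) and Notch3 (-0.54 ± 0.10), all of them genes of mural cells. The count was 5 lower and 2 higher without IgGL replicate 1, 1 lower without IgGL replicate 3, and 0 without IgGL replicate 2 or any 1 LepL library. The summed pericyte list was 897.4 to 959.3 CPM in IgGL and 701.7 to 721.8 CPM in LepL.

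The effect of LepAb was then compared between the organs, as the log2 fold change in the kidney minus that in the lung. It differed for Acta2 (0.68 ± 0.18, adjusted p = 0.0384) and for Myh11 (0.94 ± 0.25, adjusted p = 0.0385), which is 2 of 10 members against 7.12% of the 21488 genes tested (3.51% higher and 3.62% lower). For Acta2 the kidney value was -0.15 and the lung value -0.81, and for Myh11 they were 0.70 and -0.21. Cthrc1 differed by -2.05 ± 0.62 (adjusted p = 0.0645), and passed with DESeq2 (adjusted p = 0.00814). Runx1 differed by -0.10 between the organs (adjusted p = 0.839), with -0.82 in the kidney and -0.69 in the lung. The organs differ in injury, day and age as well as tissue, which cannot be told apart. When single libraries were left out, the call of Acta2 held in 2 of 12 fits and that of Myh11 in 3 of 12.

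Within groups, the median correlation between contractile genes was higher in the lung than in the kidney, as a description. After each group's mean was taken out of log2(CPM + 1), the 15 pairs of contractile genes had correlations of 0.166 to 0.821 over the 15 libraries, with a median of 0.391. The median over the 9 kidney libraries was 0.054 and over the 6 lung libraries 0.749. Tagln and Cnn1 were scarce in the kidney, and pairs holding either ran there from -0.59 to 0.13. Pairs among Acta2, Myh11, Des and Myl9 ran from 0.233 to 0.783 in the kidney and from 0.189 to 0.875 in the lung. For these pairs the organs were alike. Over all 15 libraries, Myh11 and Des formed the closest pair (0.821) and Myh11 and Myl9 the next (0.790). The 6 pairs of activation genes had a median of -0.300, from Lrrc15 and Runx1 at -0.520 to Cthrc1 and Lrrc15 at 0.596, and the 24 mixed pairs had a median of -0.040. The libraries share scaling factors and tissue composition, which enter all of these values.

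By the same measure the genes nearest to each member were named among 14355 genes with a mean of at least 1 CPM in both organs. Each value is among the highest of that many correlations over 15 libraries. Such a search yields high values by selection, so the names are a description only. Myh11 lay nearest to Tbc1d30 (0.913), Tpm2 (0.907) and Ccdc162 (0.905), and Tpm2, a tropomyosin, is also on the smooth muscle list. Myl9 lay nearest to Eng (0.947), Acta2 to Ntmt1 (0.920), Des to Gsn (0.889), Cnn1 to Anp32a (0.926) and Tagln to Dctn6 (0.920). Runx1 lay nearest to Nrg1 (0.936), Smox (0.933) and Zkscan17 (0.924), while Cthrc1 lay nearest to Lmbr1 (0.934), Lrrc15 to Fbxo9 (0.944) and Fap to Adam22 (0.855).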

How the data were processed

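The members and all gene lists were chosen with earlier results of these data known. Per the labels and the study's methods, RNA from kidney or lung was sequenced by a service provider, and the submitters' processing notes name GRCm39 (mm39) and DESeq2; aligner and counter are not given in the sources used here. The authors deposited raw counts per gene for 15 libraries, together with FPKM values that they computed. The deposited FPKM were used here to compare levels between genes, and their ratios of group means served as an alternative to the fold changes. Columns of the authors' own comparisons (fold changes and p-values) were not used.

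Counts were scaled by TMM, separately for kidney and lung, and tested with edgeR 4.0.16 (limma 3.58.1, R 4.3.3) by the quasi-likelihood test after filterByExpr (minimum count 10, minimum total 15). The kidney fit held 9 libraries (6 residual degrees of freedom) and the lung fit 6 (4 residual degrees of freedom). The difference between organs was an interaction over the 12 injured libraries, called at an adjusted p under 0.05. P-values were adjusted by Benjamini-Hochberg over all genes tested, and SE is the log2 fold change divided by the root of F. Exact permutation of 3 against 3 libraries cannot go below 0.1, so no such test was used. Alternatives were other scalings, DESeq2 1.42.0, no low-count filter, other sets of libraries, a replicate block, no fold threshold and leaving out each library; for the gene lists, DESeq2 and leaving out each library were added after seeing the data. Replicates of a group differed by more than sampling noise (chi-square per gene of 7.15 or more in every pair). On simulated counts, changes of 1 and 2 on the log2 scale were recovered in 80% and 99% of genes for IgGK against WTK, 86% and 99% for LepK against IgGK, 80% and 97% for LepK against WTK, and 76% and 95% for LepL against IgGL. For the difference between organs 53% and 87% were recovered. Each rate is over 100 genes, drawn only from genes above a minimum expected count, and was not split by count level. The kidney counts of Tagln, Cthrc1 and Lrrc15 lay below this minimum, so recovery at such counts was not tested.

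All 10 members are named, with up to 3 called genes with the largest change per list and comparison at a mean of at least 1 CPM, and the nearest of the 3 genes most like each member. CArG matches were searched in RefSeq promoters of GRCm38.p6, another build than that of the table.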

Additional observations from a re-analysis of the deposited data

Results flagged for a closer look

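The effect of LepAb differed between kidney and lung for 2 of the 10 members by the interaction test of edgeR. Acta2 had a difference of 0.68 on the log2 scale (kidney minus lung, adjusted p = 0.0384), with LepK at 62.8 ± 5.87 and IgGK at 69.8 ± 4.28 CPM, and LepL at 194.5 ± 20.9 and IgGL at 339.9 ± 62.5 CPM (SD, n = 3 libraries). Myh11 had a difference of 0.94 (adjusted p = 0.0385), with LepK at 37.2 ± 3.68 and IgGK at 23.0 ± 2.64 CPM, and LepL at 66.9 ± 17.7 and IgGL at 77.3 ± 10.3 CPM. Both calls were lost in most fits that left out 1 library, and in the lung the Myh11 value of LepL replicate 1 (47.0 CPM) lay apart from the other two.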

How the results depend on the processing

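Leaving out 1 library gave 6 to 8 members called for IgGK against WTK (7 with all libraries). It gave 2 to 3 for LepK against IgGK (3), 4 to 6 for LepK against WTK (5), 0 to 2 for LepL against IgGL (1) and 0 to 3 for kidney minus lung (2). In LepL against IgGL, 2 members were called with DESeq2, with no filter and in a fit with the injured kidney groups, and 0 with a replicate block. For kidney minus lung, 1 was called with library size alone and 1 with the replicate block. Same-numbered libraries had correlations of deviations from -0.121 to 0.261, and differently numbered ones from -0.295 to 0.186. The highest values were those of IgGK with LepK in replicate 1 (0.261) and replicate 2 (0.242), while replicate 3 was at -0.052. The numbers were not taken to pair the libraries, and the replicate block was run as an alternative. Library size alone called Tagln (1.54), Myl9 (0.93) and Cthrc1 (1.74) higher in IgGK against WTK and lost Myh11 and Lrrc15 there. It turned the kidney minus lung values of Cnn1 to -0.063 and Fap to -0.22, and no filter turned Fap to -0.0064. The sum of the Tagln and Gm48529 counts was at -0.25 in LepK against IgGK and -0.21 for kidney minus lung. With 1 library left out, the sign also turned for LepK against IgGK in Lrrc15 (-0.087 to 0.98) and Tagln (-0.045 to 0.64), for LepL against IgGL in Cthrc1 (-0.42 to 0.14), Lrrc15 (-0.83 to 0.14), Myl9 (-0.13 to 0.13) and Des (-0.11 to 0.27), and for kidney minus lung in Fap (-0.12 to 0.30), Cnn1 (-0.026 to 0.44) and Runx1 (-0.28 to 0.060). The cause was not tested. Over all genes, calls in LepL against IgGL went to 2294 with DESeq2, 2688 with no filter, 2067 with the injured kidney groups, 4 with the replicate block and 0 to 3539 with 1 library left out. For kidney minus lung they went to 2772 with DESeq2, 2659 with no filter and 352 to 3763 with 1 library left out. With no fold threshold there were 4025 in LepK against IgGK and 7569 in LepK against WTK. With library size alone the split of higher and lower was 7803 and 1178 for the injury, 408 and 2185 for LepAb in the kidney, and 249 and 1968 for kidney minus lung, beside 4253 and 3057, 858 and 1174, and 754 and 777 with TMM. Of the gene values in the other settings, 305 were read as unchanged, 15 gained a call, 10 lost a call and 5 changed sign. These values include FPKM ratios of group means, which have no p and were read as unchanged when within the SE. Few counts limit Tagln, Cthrc1 and Lrrc15 in the kidney.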

Other observations

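Foxj1, Upk1b, Msln and Wt1 were higher in IgGK than in WTK, by 5.64 ± 0.53, 2.23 ± 0.24, 1.63 ± 0.26 and 0.99 ± 0.17 on the log2 scale (edgeR adjusted p = 2.18e-06, 5.48e-06, 0.000155 and 0.00028). Foxj1 is a factor of multiciliated cells, and the other three were listed as mesothelial genes. Of the 6 genes of that list 4 were higher and 1 was lower, Gpm6a (named after its values were seen) at -0.75 ± 0.13 (adjusted p = 0.000335). The summed list was lower, at 170.0 to 173.1 CPM in WTK and 115.0 to 158.7 CPM in IgGK. Gpm6a made up most of that sum, at 148.6 of 170.7 CPM in WTK replicate 1. In the lung the mesothelial genes Upk3b, Gpm6a and Lrrn4 were higher in LepL than in IgGL, by 1.46 ± 0.24, 1.08 ± 0.20 and 0.91 ± 0.10 (adjusted p = 0.0327, 0.0344 and 0.0327), and the other three were not called. Neutrophil markers summed to 173.0 to 411.6 CPM in IgGL and to 63.2 to 103.1 CPM in LepL, with Retnlg at -2.18 ± 0.37 (adjusted p = 0.0327). Both lung counts fell to 0 without replicate 2 or replicate 3 of either group, and without LepL replicate 1 they were 1 mesothelial gene and 0 neutrophil genes. Ren1, the renin gene of juxtaglomerular cells, which are modified smooth muscle cells, was lower in IgGK than in WTK by -1.67 ± 0.11 and higher in LepK than in IgGK by 0.93 ± 0.11 (adjusted p = 1.74e-07 and 0.000287), and Abcc9, a potassium channel subunit of mural cells, was higher in LepK by 0.62 ± 0.11.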
